A study of Rattus norvegicus with 9 samples.

Results

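Thrombospondins, tenascin C and other matricellular proteins were followed in the pubococcygeus of female Sprague-Dawley rats, one of the striated muscles that close the pelvic floor. The set held 8 genes taken by symbol, Thbs1, Thbs2, Thbs3, Thbs4, Tnc, Postn, Sparc and Fn1, out of 30518 rows of the deposited gene table. Each symbol stood on 1 row, and all 8 genes passed the filter on low counts that left 16256 genes for testing. RNA sequencing covered 9 libraries, 3 per group, from a study of 24 rats in groups of 8. Stimulated rats first underwent bilateral ovariectomy and vaginal distension with an 8-Fr Foley balloon (3 mL saline, 120 g weight, 4 h), a model of stress urinary incontinence (SUI). Starting 1 week later they were given pelvic floor electrical stimulation (PFES) through the vagina, with monophasic square waves of 50 Hz, 20 mA and 200 µs for 30 min a day, 5 days per week over 2 weeks. The SUI group had the same ovariectomy and distension and no further treatment, and the blank group had no intervention. The stimulated and SUI rats therefore share the operation, and the sample titles name no mock stimulation in any group. Rat ages are not given in the sources used here. Whether each library stands for 1 rat is not stated either, so p-values measure only the spread between libraries, which may be technical. The SUI libraries are named sham, but their titles give ovariectomy and distension, and groups follow the titles.

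Matricellular proteins are secreted into the extracellular matrix, where they act mainly as signals and adaptors between cells, growth factors and collagen rather than as load-bearing fibres. Many are made at low levels in resting adult tissue and at higher levels after injury or under mechanical load. In muscle they come mostly from fibroblasts, fibro-adipogenic progenitors and tenocytes, with some made by the fibres themselves. Fibronectin (Fn1) is a structural adhesive glycoprotein rather than a matricellular protein in the strict sense, and the others bind to it or to its receptors.

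The 8 genes shared one pattern. All 8 were lower in SUI than in blank muscle, where 49.2% of all genes were lower, with a median log2 fold change of -1.19 against 0.01 over all genes tested. All 8 were higher in stimulated than in SUI muscle, where 52.6% of all genes were higher, with a median of 1.39 against 0.02 over all genes. Both comparisons share the SUI libraries, so they are not independent of each other. The 8 genes were chosen with earlier results of these data known, so shares of all genes are given as description, not as a test. Thbs1 had the smallest p of the 8 in both, and Tnc the largest log2 difference between SUI and blank. With edgeR's quasi-likelihood test and Benjamini-Hochberg adjustment over all genes, 0 of the 8 passed 0.05 in any comparison. The background in that test was 0% of genes called in SUI over blank, 0.0123% in stimulated over SUI and 0.00615% in stimulated over blank. At an unadjusted edgeR p under 0.05, 5 of the 8 were lower in SUI than in blank, where 5.34% of all genes were, and 6 of the 8 were higher in stimulated than in SUI muscle, where 5.23% of all genes were. DESeq2 called Thbs1 and Tnc lower in SUI than in blank, where 0.857% of genes were called lower. It called Thbs1, Tnc and Sparc higher in stimulated than in SUI muscle, where 0.944% of genes were called higher. Limma's voom with sample weights called 0 of the 8 in SUI over blank, where it called 0% of all genes, and 1, Thbs1, in stimulated over SUI, where it called 0.295%.

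Depth ran from 50833480 counts in blank replicate 1 to 147650284 in stimulated replicate 1. Blank replicate 1 differed from the rest, with a mitochondrial share of 32.9% of counts, while the other libraries had 13.4% to 17.7%. Its median correlation over genes with the other libraries was 0.92, and theirs were 0.949 to 0.968. Stimulated replicate 2 had the highest mean of the 8 genes, 1.06 on the log2 scale above their average over all libraries. Results are therefore also given without these libraries. Markers of skeletal muscle were abundant throughout, with Acta1 at 30213 to 59464 CPM, and those of other cell types are given after the results. CPM here are counts scaled to library size with TMM composition factors, and ± marks the SD over 3 libraries.

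**Figure D1:**
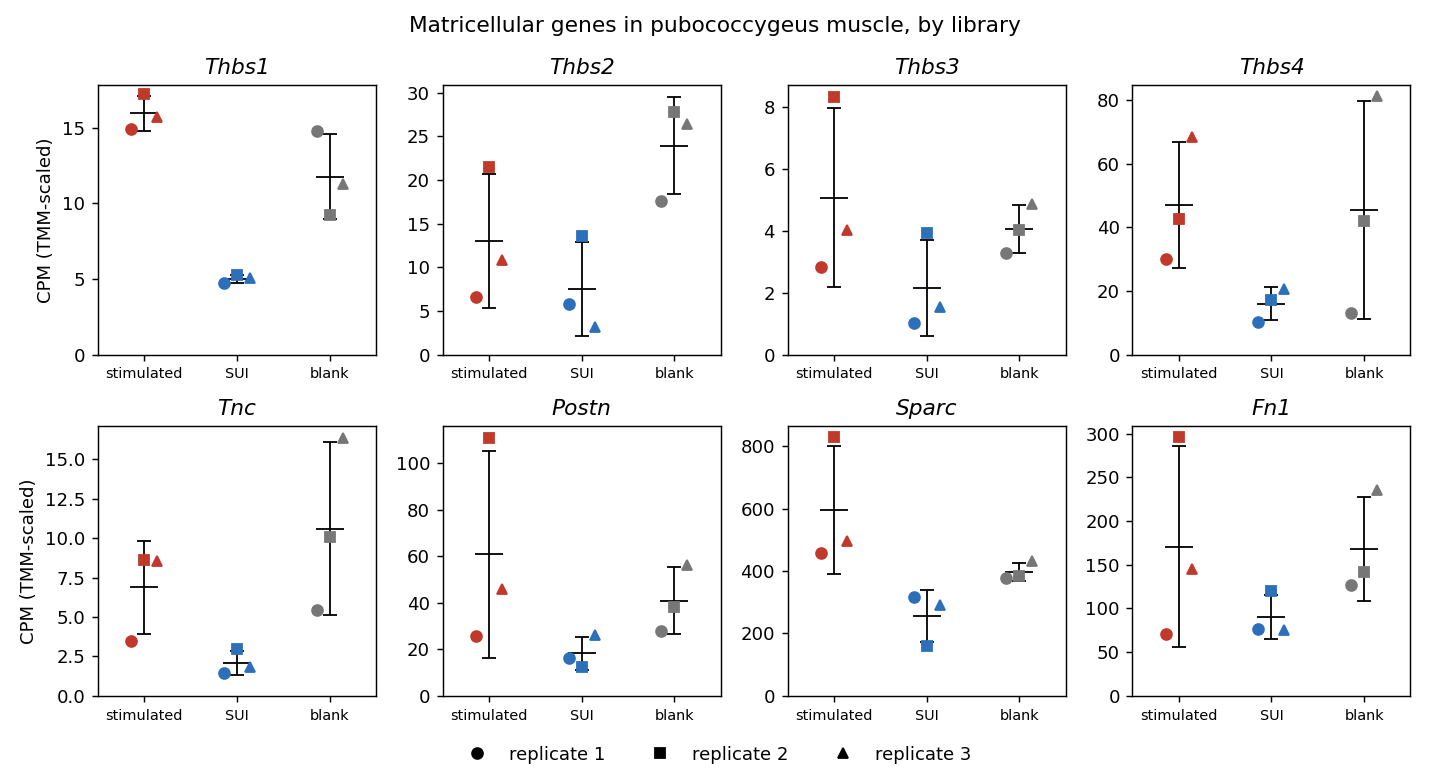
Level of each of the 8 genes in every library, in TMM-scaled CPM on a linear axis from 0. Points are libraries, their shape the replicate number, and black bars the mean ± SD of 3 libraries. In Thbs1 the 3 SUI libraries sit at 4.75 to 5.28 CPM, below every stimulated and blank library, whereas in Thbs3 the groups overlap.

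The bases just upstream of the annotated start are shown for the 4 genes whose stimulated libraries all lay above their SUI libraries, Thbs1, Thbs4, Tnc and Sparc, so that they can be read beside their values. The sequences are RefSeq's for the GRCr8 assembly, 200 bases ending at the last base before the start, read 5′ to 3′ on the gene's strand. Capitals mark the hexamer GGAATG or its reverse complement CATTCC, the core of the element bound by TEAD factors, through which the load-sensing coactivators YAP and TAZ act.
Thbs1 (chr3:125510050-125510249, plus strand): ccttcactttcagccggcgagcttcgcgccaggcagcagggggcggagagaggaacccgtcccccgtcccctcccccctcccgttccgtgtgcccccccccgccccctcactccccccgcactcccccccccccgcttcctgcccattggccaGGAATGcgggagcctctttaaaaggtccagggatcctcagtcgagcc
Thbs4 (chr2:25760346-25760545, minus strand): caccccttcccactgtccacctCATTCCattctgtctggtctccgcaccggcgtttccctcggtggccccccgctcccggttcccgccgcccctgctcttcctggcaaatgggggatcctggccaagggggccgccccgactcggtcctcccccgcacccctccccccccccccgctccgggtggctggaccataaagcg
Tnc (chr5:82476132-82476331, minus strand): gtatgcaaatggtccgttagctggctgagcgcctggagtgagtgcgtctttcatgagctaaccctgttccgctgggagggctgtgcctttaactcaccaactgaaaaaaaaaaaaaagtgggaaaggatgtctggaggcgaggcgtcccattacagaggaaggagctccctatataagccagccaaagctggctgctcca
Sparc (chr10:40038817-40039016, minus strand): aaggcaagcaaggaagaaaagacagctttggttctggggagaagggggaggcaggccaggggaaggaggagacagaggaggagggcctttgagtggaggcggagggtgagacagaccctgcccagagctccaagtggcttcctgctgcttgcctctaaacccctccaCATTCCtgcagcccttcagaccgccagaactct
A promoter was found for 6 of the 8 genes, and the entries of Thbs2 and Fn1 were not found. In the 250 bases before the start, the TEAD hexamer occurred on either strand in 3 of the 6, Thbs1, Thbs4 and Sparc, and in 11.8% of 27457 rat promoters of the same length. In Thbs1 it ended 42 bases before the start, in Sparc 28 and in Thbs4 173. The TATA element TATAAA occurred in 2 of the 6, Tnc and Postn, and in 13.1% of all promoters. These exact letters ended 39 bases before the start in Postn and 203 in Tnc, outside the stretch shown. The printed Tnc stretch holds the variant tatataa near its end, which the search for TATAAA does not count. The short SMAD element CAGAC was in 4 of the 6 (Thbs4, Tnc, Postn and Sparc) and in 42.8% of all promoters, and the GC box GGGCGG was in 4 of the 6 (Thbs1, Thbs3, Thbs4 and Tnc) and in 32.4%. The AP-1 element TGACTCA, found in 3.98% of promoters, and the CArG box of serum response factor, found in 1.5%, were in none of the 6 windows. All motifs were searched on both strands, and a match describes letters, not binding.

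Thbs1 encodes thrombospondin 1, a glycoprotein that activates latent TGF-beta and inhibits vessel growth. Its row lies at chr3:105056292-105071440 on the plus strand (mRatBN7.2). The stimulated libraries held 14.9, 17.2 and 15.7 CPM, the SUI libraries 4.75, 5.28 and 5.06, and the blank libraries 14.8, 9.20 and 11.3. The SUI libraries lay close together and below all the others, and every stimulated library was above every blank library, the nearest pair being 14.9 and 14.8 CPM. Thbs1 averaged 15.9 ± 1.16 CPM in stimulated and 5.03 ± 0.263 in SUI muscle, a log2 difference of 1.66 ± 0.21 SE (edgeR adjusted p = 0.0861). In SUI against the 11.8 ± 2.81 CPM of blank muscle the log2 fold change was -1.22 ± 0.21 (edgeR adjusted p = 0.2). It ranked 3 of 16256 genes by p in the comparison of stimulated with SUI muscle and 13 in that of SUI with blank. DESeq2 called Thbs1 higher in stimulated than in SUI muscle (adjusted p = 1.38e-08) and lower in SUI than in blank muscle (adjusted p = 0.000141), and limma's voom called the difference between stimulated and SUI (adjusted p = 0.00755). Without blank replicate 1, edgeR also called it in stimulated over SUI, at adjusted p = 0.0499, while leaving out each other library gave up to 0.367 and a log2 fold change of 1.61 to 1.71. Fsip1, on the other strand, shares 2898 bases of the Thbs1 row, but its row held a mean of 10.8 counts against 1215 for Thbs1.

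Thbs2, at chr1:55670394-55699789 on the minus strand, encodes the closest relative of thrombospondin 1, a collagen fibril organiser and inhibitor of vessel growth made by fibroblasts. Its stimulated libraries held 6.62, 21.5 and 10.9 CPM, its SUI libraries 5.81, 13.6 and 3.19, and its blank libraries 17.6, 27.8 and 26.5. All SUI libraries were below all blank libraries, while stimulated and SUI libraries overlapped. The log2 fold change was -1.67 ± 0.55 in SUI over blank (edgeR adjusted p = 0.549) and 0.79 ± 0.54 in stimulated over SUI (edgeR adjusted p = 0.771). The Thbs2 mean was 13.0 ± 7.67 CPM in stimulated and 23.97 ± 5.57 in blank muscle, and this difference came to -0.88 ± 0.54 on the log2 scale (edgeR adjusted p = 0.898). The difference between stimulated and SUI muscle was 0.22 without stimulated replicate 2 and 1.53 without SUI replicate 2, and that between SUI and blank was -2.42 without SUI replicate 2.

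Thbs3 and Thbs4 encode the thrombospondins that lack the procollagen-like and type 1 repeat domains of Thbs1 and Thbs2. Thbs3, at chr2:174621812-174633594 on the plus strand, was the thrombospondin with the lowest mean FPKM in every group, and on the CPM scale it had 2.84, 8.34 and 4.03 CPM in stimulated, 1.04, 3.93 and 1.53 in SUI and 3.28, 4.04 and 4.87 in blank libraries. SUI replicate 2 lay among the blank libraries and stimulated replicate 1 below SUI replicate 2. The log2 fold change was 1.23 ± 0.53 in stimulated over SUI (edgeR adjusted p = 0.611) and -0.91 ± 0.53 in SUI over blank (edgeR adjusted p = 0.632). The first was 0.66 without stimulated replicate 2 and 1.99 without SUI replicate 2. The second was -1.68 without SUI replicate 2 and -0.59 without SUI replicate 1.

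Thbs4, at chr2:23983158-24025289 on the minus strand, encodes a thrombospondin of tendon and muscle that organises the matrix at the fibre's attachment and, in the mouse heart, assists the endoplasmic reticulum stress response. The stimulated libraries held 29.9, 42.6 and 68.5 CPM, the SUI libraries 10.3, 17.3 and 20.5, and the blank libraries 13.0, 42.0 and 81.1. Every stimulated library was above every SUI library, while the blank libraries spread over a range wider than both, with replicate 1 inside the SUI range. The log2 fold change was 1.55 ± 0.58 in stimulated over SUI (edgeR adjusted p = 0.535) and -1.51 ± 0.58 in SUI over blank (edgeR adjusted p = 0.552). Without blank replicate 3 the second was -0.79, and without blank replicate 1 it was -1.94. Means of stimulated and blank muscle were 47.0 ± 19.6 and 45.4 ± 34.2 CPM, and the log2 difference was 0.05 ± 0.56 (edgeR adjusted p = 0.992).

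Tnc encodes tenascin C, an anti-adhesive glycoprotein of developing, loaded and healing tissue that in adult muscle is concentrated at the myotendinous junction. Its row lies at chr5:77375851-77460624 on the minus strand. The stimulated libraries held 3.46, 8.61 and 8.54 CPM, the SUI libraries 1.44, 2.96 and 1.86, and the blank libraries 5.43, 10.0 and 16.3. No SUI library reached any stimulated or blank library, and the stimulated and blank libraries overlapped. Tnc averaged 2.09 ± 0.781 CPM in SUI and 10.6 ± 5.48 in blank muscle, a log2 difference of -2.35 ± 0.49 (edgeR adjusted p = 0.34, DESeq2 adjusted p = 0.000643). Stimulated muscle averaged 6.87 ± 2.95 CPM, a log2 difference of 1.72 ± 0.48 over SUI (edgeR adjusted p = 0.437, DESeq2 adjusted p = 0.0406). Against blank it was -0.63 ± 0.47 (edgeR adjusted p = 0.898). Among blank libraries, replicate 1 was lowest and replicate 3 highest in Tnc and Thbs4, both genes of the muscle's tendon attachment, and also in Thbs3, Postn, Sparc and Fn1.

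Postn encodes periostin, which binds collagen and fibronectin and promotes cross-linking of fibrils. At chr2:138527696-138553668 on the plus strand, it held 25.8, 110.9 and 46.1 CPM in stimulated, 16.3, 12.5 and 26.3 in SUI and 28.1, 38.1 and 56.4 in blank libraries. Stimulated replicate 2 was far above every other library, and stimulated replicate 1 lay just below the highest SUI library. The log2 fold change was 1.73 ± 0.52 in stimulated over SUI (edgeR adjusted p = 0.48, DESeq2 adjusted p = 0.0576), and 0.97 without stimulated replicate 2. In SUI over blank it was -1.15 ± 0.51 (edgeR adjusted p = 0.607).

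Sparc encodes osteonectin, a collagen chaperone and calcium-binding matrix protein. At chr10:39516406-39538396 on the minus strand, it was the most abundant of the 8, with 457.8, 830.6 and 495.6 CPM in stimulated, 316.4, 159.8 and 291.4 in SUI and 376.5, 384.0 and 431.0 in blank libraries. All stimulated libraries were above all blank libraries, and all blank above all SUI libraries. The log2 fold change was 1.22 ± 0.32 in stimulated over SUI (edgeR adjusted p = 0.417, DESeq2 adjusted p = 0.0284), -0.63 ± 0.31 in SUI over blank (edgeR adjusted p = 0.61) and 0.58 ± 0.31 in stimulated over blank (edgeR adjusted p = 0.898). The difference between SUI and blank was -0.40 without SUI replicate 2. On the deposited FPKM scale, which has no composition factor, the stimulated libraries held 170.4, 376.2 and 205.1, the SUI libraries 173.6, 68.9 and 119.7, and the blank libraries 114.3, 171.0 and 188.8, and the groups overlapped.

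Fn1 encodes fibronectin, the adhesive glycoprotein on which much of the collagen network assembles, at chr9:73196044-73264678 on the minus strand. Its stimulated libraries held 70.8, 296.4 and 144.8 CPM, its SUI libraries 76.1, 119.4 and 74.8, and its blank libraries 127.0, 141.2 and 235.5. Stimulated replicate 1 was the lowest of the 9 and stimulated replicate 2 the highest, so the stimulated group spanned the other groups. The log2 fold change was 0.92 ± 0.47 in stimulated over SUI (edgeR adjusted p = 0.689), and 0.26 without stimulated replicate 2. In SUI over blank it was -0.90 ± 0.47 (edgeR adjusted p = 0.61), and -0.57 without blank replicate 3. Liver makes the plasma form of fibronectin, and the gene table does not separate isoforms.

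**Figure D2:**
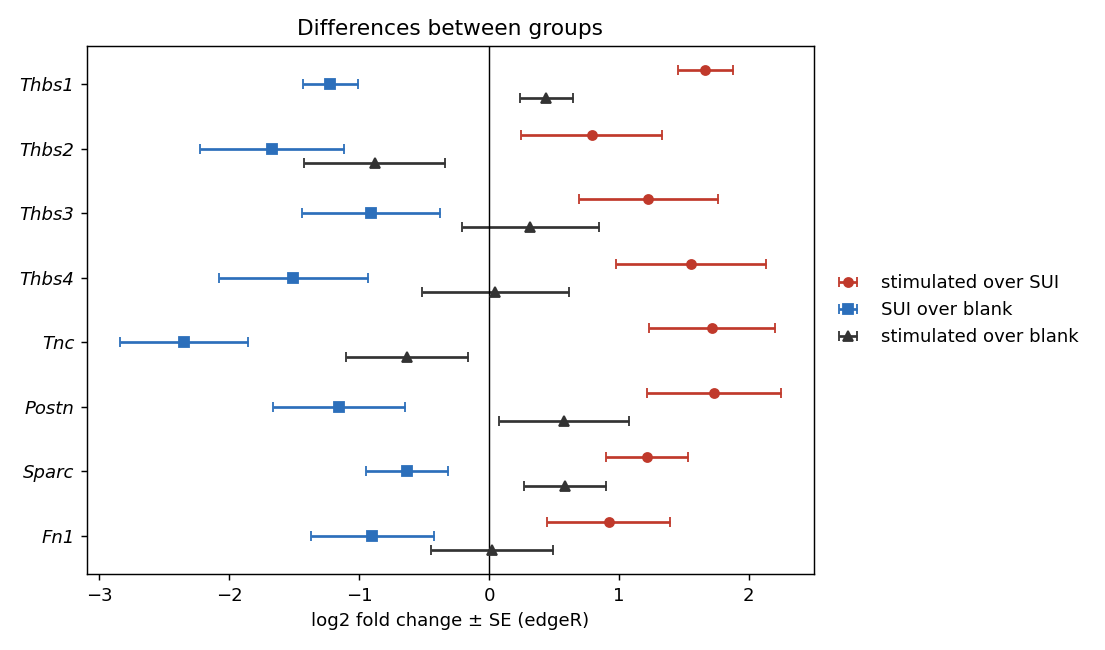
edgeR log2 fold change ± SE of each gene (points and bars) in 3 comparisons, with all 9 libraries in one fit. All stimulated over SUI values are right of 0 and all SUI over blank values left of it, while stimulated over blank values lie between -0.88 for Thbs2 and 0.58 for Sparc.

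How separated the groups were depended on the scale. In TMM-scaled CPM, 6 of the 8 genes had every SUI library below every blank library, where 7.77% of all genes did. In deposited FPKM it was 2, Thbs1 and Tnc, where 3.96% of all genes did. For stimulated above SUI, 4 of the 8 were separated in TMM-scaled CPM, where 9.52% of all genes were. In FPKM 3 were, Thbs1, Thbs4 and Tnc, where 5.39% of all genes were. For stimulated above blank, Thbs1 and Sparc were separated in TMM-scaled CPM, where 7.9% of all genes were, and Thbs1 alone in FPKM, where 4.88% were. Without blank replicate 1, all 8 genes were separated downward in SUI against blank in TMM-scaled CPM, where 12.8% of all genes were in that smaller comparison. Without stimulated replicate 2, 4 were separated upward in stimulated against SUI, where 13.5% of all genes were.

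The direction of every gene was the same in all 21 alternatives in both comparisons with SUI. The number of the 8 at an unadjusted edgeR p under 0.05 in SUI over blank was 5 without blank replicate 1 and 7 without stimulated replicate 2, where 6.21% and 7.81% of all genes reached it in either direction. It was 3 (Thbs1, Thbs2 and Tnc) without blank replicate 3, where 11.7% of all genes did. By limma's unadjusted p on FPKM the same 3 were under 0.05. At pseudocounts of 1 and 0.1, 6.51% and 6.57% of all genes were. In stimulated over SUI the edgeR number was 5 without blank replicate 1, where 13.6% of all genes reached that p. It was 5 without stimulated replicate 2 and 5 without both of these libraries, where 4.58% and 8.27% of all genes did. By limma's unadjusted p on FPKM at a pseudocount of 1 it was 3, where 5.87% did. Stimulated over blank gave no such common direction: 6 of the 8 genes were higher, where 54.3% of all genes were, and 2, Thbs2 and Tnc, lower. With edgeR, 0 of the 8 reached an unadjusted p under 0.05 there, against 3.77% of all genes, and DESeq2 called 0, against 0.13% of all genes. Without stimulated replicate 2 the split was 3 higher and 5 lower, and without both libraries 2 higher and 6 lower.

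**Figure D3:**
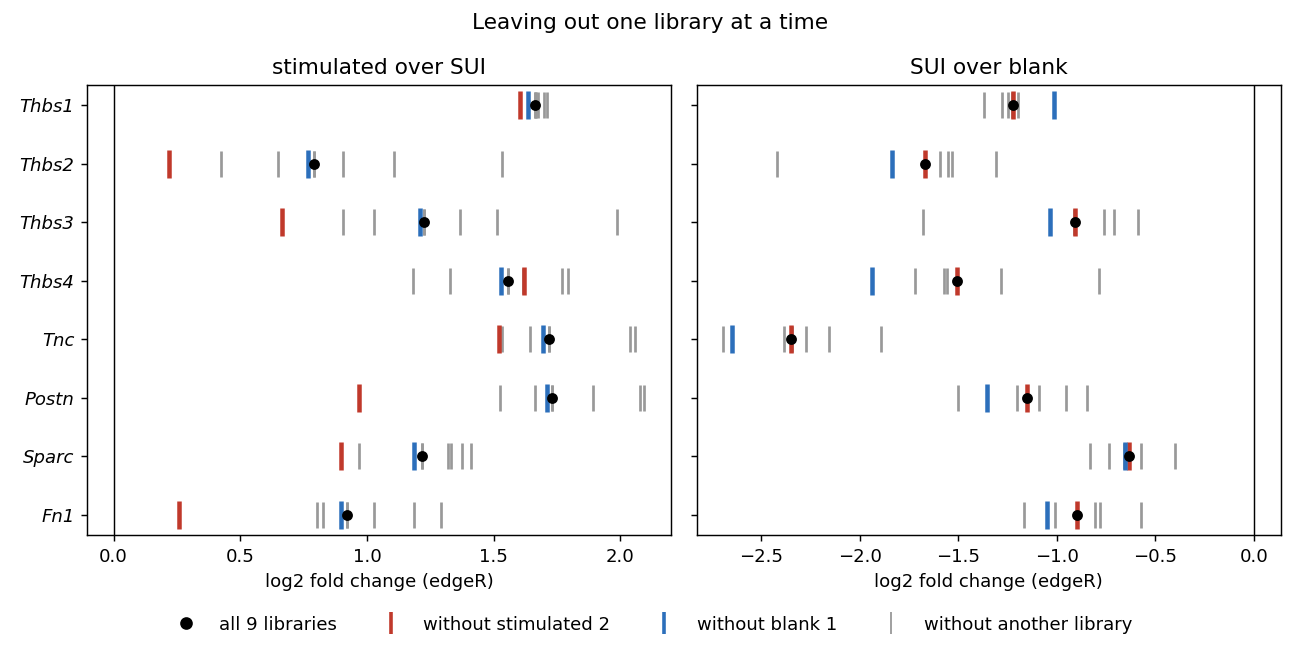
edgeR log2 fold change of each gene with all 9 libraries (black points) and with 1 library left out (ticks), for stimulated over SUI and SUI over blank. Thbs1 stays within 1.61 to 1.71 in stimulated over SUI, while the red ticks show Fn1 at 0.26 and Thbs2 at 0.22 without stimulated replicate 2.

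Within groups the 8 genes differed in how evenly the libraries expressed them. Thbs1 had a coefficient of variation of 7.29% in stimulated, 5.23% in SUI and 23.9% in blank libraries. Thbs2 had 59.0% in stimulated, 71.8% in SUI and 23.3% in blank libraries, and Sparc had 34.5% in stimulated, 32.9% in SUI and 7.45% in blank libraries. Over the 9 libraries, the members with the most similar profiles of centred log2 CPM were Thbs3 and Fn1, with a mean absolute difference of 0.331 log2 units, followed by Postn and Sparc at 0.369. The least similar were Thbs2 and Sparc at 0.931. Thbs2 and Thbs1, the closest relatives by structure, differed by 0.736. The SUI libraries were not ordered alike: SUI replicate 2 was the lowest of all 9 libraries in Sparc and Postn but the highest SUI library in Thbs1, Thbs2, Thbs3, Tnc and Fn1.

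**Figure D4:**
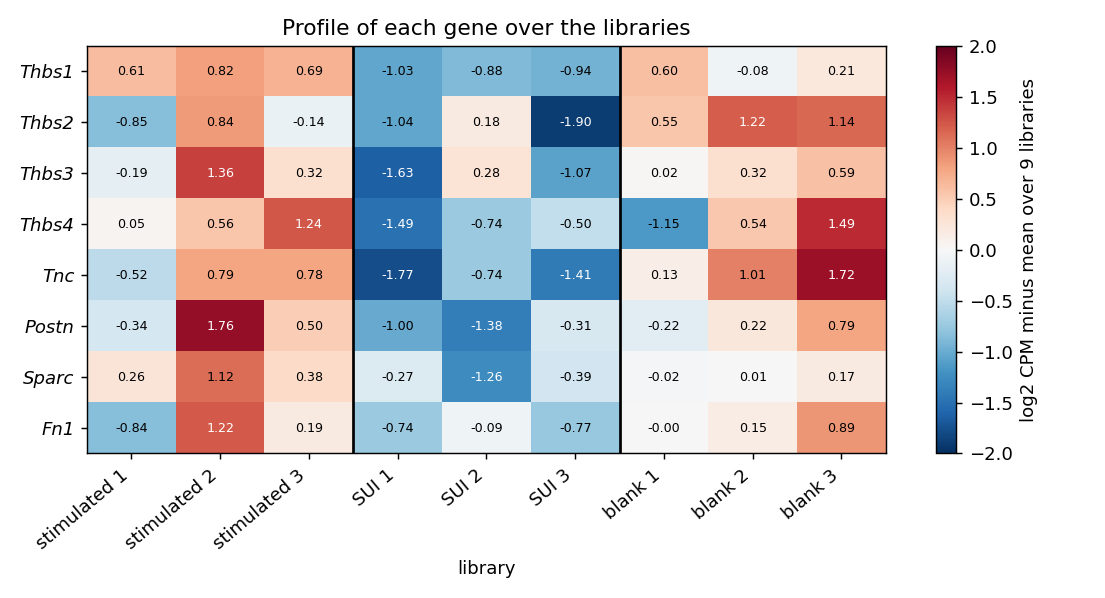
Each gene's log2 CPM minus its mean over the 9 libraries (colour and printed value), with libraries in columns and groups divided by black lines. Stimulated replicate 2 reads 0.56 to 1.76 in all 8 genes, and SUI replicate 2 ranges from -1.38 in Postn to 0.28 in Thbs3.

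Levels of different genes were compared on the FPKM scale, which divides by gene length. Sparc was highest in every group, at a mean of 250.6 ± 110.1 FPKM in stimulated, 120.7 ± 52.4 in SUI and 158.0 ± 38.9 in blank libraries, and its libraries did not overlap those of the next gene, Fn1, in any group. Fn1, Postn and Thbs4 followed, at means between 12.04 and 17.9 FPKM in stimulated and between 10.3 and 16.7 in blank muscle, where neighbours in that order overlapped. In SUI muscle Fn1, at 10.0 ± 2.48 FPKM, stood clear of Postn (5.06 ± 1.65), which overlapped Thbs4 (4.38 ± 0.873). Thbs1, Thbs2, Thbs3 and Tnc were at means of 0.939 to 2.33 FPKM in stimulated, 0.274 to 1.18 in SUI and 1.03 to 3.40 in blank muscle. Tnc was the lowest of the 8 in SUI muscle, where its libraries did not overlap those of Thbs3, and also in stimulated muscle, where they did. Thbs1 was above Thbs2 in 2 of the 3 stimulated libraries, with a ratio of Thbs2 to Thbs1 FPKM of 0.436, 1.23 and 0.679, against 1.20, 2.52 and 0.619 in SUI and 1.17, 2.97 and 2.30 in blank libraries. The ratio of Postn to Fn1 FPKM was 0.908, 0.935 and 0.803 in stimulated libraries, against 0.533, 0.262 and 0.870 in SUI and 0.549, 0.678 and 0.601 in blank libraries. The stimulated libraries thus overlapped the SUI libraries and lay above all blank libraries in this ratio.

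**Figure D5:**
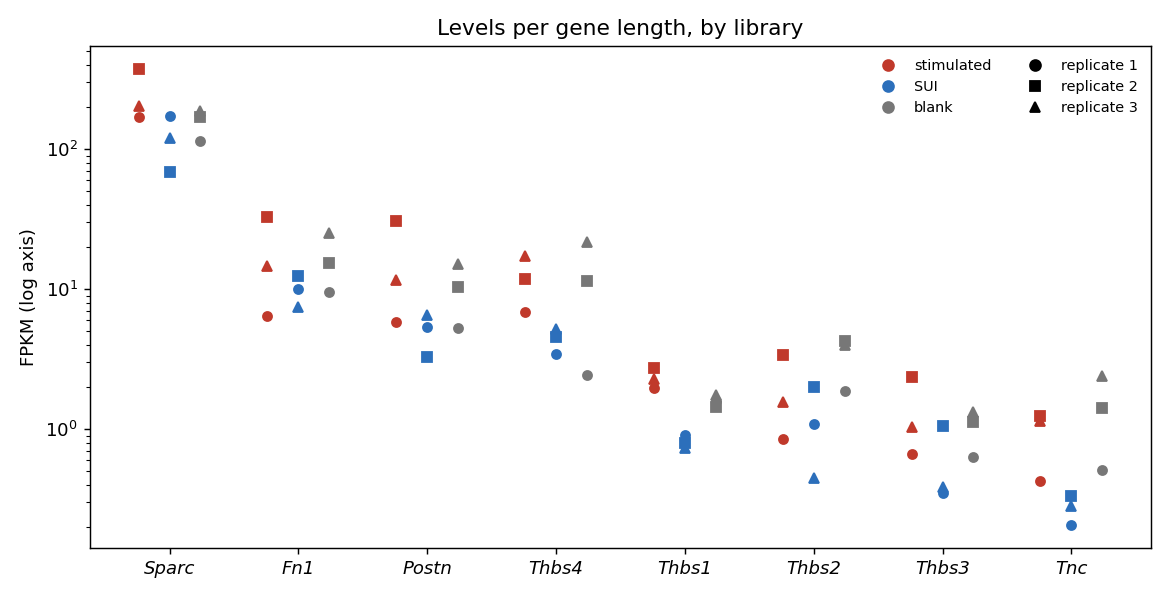
Deposited FPKM of each gene in every library on a log axis, genes ordered by their stimulated mean, colours marking groups and shapes replicates. Sparc lies between 68.9 and 376.2 FPKM, and no library of Thbs1, Thbs2, Thbs3 or Tnc exceeds 4.29.

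Related genes were read from the same fit. Among 15 measured receptors of these proteins, such as integrins and syndecans, 8 were lower and 7 higher in SUI than in blank muscle, with a median log2 fold change of -0.05. In stimulated over SUI 10 were higher and 5 lower, with a median of 0.15. In each comparison 1 of the 15 receptors reached an unadjusted edgeR p under 0.05, where 8.18% and 8% of all genes did in either direction. The receptors at that p were Itgav, the alpha V integrin that binds RGD motifs (-0.77 ± 0.23 in SUI over blank), and Itga8, its relative that binds fibronectin and tenascin C (0.98 ± 0.26 in stimulated over SUI). Itga8 held 3.66, 4.88 and 4.32 CPM in stimulated and 1.99, 1.89 and 2.64 in SUI libraries.

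Paralogues of the 8 genes shared their direction against blank, with 9 of 9 tested lower in SUI (median -0.77). Among these, Tnn and Spock1 were near 0, at no more than 0.397 and 0.371 CPM in any library. At an unadjusted edgeR p under 0.05, 2 were lower, Fstl1 (-1.29 ± 0.38) and Comp, the remaining thrombospondin (-2.05 ± 0.75), where 5.34% of all genes were. In stimulated over SUI 7 of the 9 were higher (median 0.40), 3 of them at that p, where 5.23% of all genes were. The 3 were Fstl1, a secreted relative of Sparc (1.68 ± 0.39), Smoc2, another Sparc relative (1.48 ± 0.48), and Tgfbi, the paralogue of Postn (1.18 ± 0.48). Comp was at 5.37 CPM in blank replicate 3 and at 0.38 to 1.15 in the other 8 libraries.

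Of 7 further matricellular genes, 5 were lower in SUI than in blank muscle and 4 higher in stimulated than in SUI muscle. Ccn2, a load- and TGF-beta-induced member of the CCN family, held 65.6, 97.8 and 118.7 CPM in stimulated and 11.1, 15.01 and 17.6 in SUI libraries, and it was the only gene of these lists past the threshold (2.69 ± 0.30, edgeR adjusted p = 0.0444). That call was lost in 8 of the 9 fits that left out 1 library, all but the one without stimulated replicate 1, with edgeR adjusted p of 0.0391 to 0.291 and log2 fold changes of 2.49 to 2.90 over the 9. It was also lost with library totals (edgeR adjusted p = 0.205), with the 6 libraries compared and with limma on FPKM, and kept with DESeq2 and voom. Ccn3, also of that family, had a log2 fold change of 1.05 ± 0.40 in stimulated over SUI and -1.61 ± 0.41 in SUI over blank, and Ccn4 one of -2.88 ± 0.93 in SUI over blank. Ccn4 was near 0 in SUI libraries, at 0.292, 0.163 and 0 CPM, against 1.27, 1.23 and 0.908 in blank libraries. Spp1, which encodes osteopontin, was lower on average in stimulated than in SUI (-0.90 ± 0.59) and in SUI than in blank muscle (-0.78 ± 0.58).

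All 13 listed partners of these proteins in the matrix, which include the enzymes Bmp1 and Tgm2, were higher in stimulated than in SUI muscle (median 0.88). Of the 13, 8 were higher at an unadjusted edgeR p under 0.05, where 5.23% of all genes were. In SUI over blank 12 of the 13 were lower (median -0.84), 6 of them at that p, where 5.34% of all genes were. Col5a1, a chain that starts collagen fibrils, had a log2 fold change of 1.83 ± 0.36 in stimulated over SUI and -1.42 ± 0.36 in SUI over blank, and Fbn1, the microfibril protein, had 1.43 ± 0.35 in stimulated over SUI and -1.60 ± 0.35 in SUI over blank. Col1a1, the main fibrillar collagen chain, had 2.44 ± 0.59 in stimulated over SUI and -2.30 ± 0.58 in SUI over blank. Among 19 regulators, Mrtfa had the smallest p in both comparisons. Mrtfa, the actin-regulated coactivator of serum response factor, held 25.3, 36.8 and 29.1 CPM in stimulated, 8.54, 11.7 and 9.40 in SUI and 39.9, 32.3 and 20.1 in blank libraries. No SUI library reached another group. Its log2 fold change was 1.62 ± 0.28 in stimulated over SUI (edgeR adjusted p = 0.181) and -1.64 ± 0.28 in SUI over blank (edgeR adjusted p = 0.2). The regulators as a list had a median of 0.05 in stimulated over SUI, with 11 higher and 8 lower, and of -0.31 in SUI over blank, with 5 higher and 14 lower. At an unadjusted edgeR p under 0.05, Mrtfa, Yap1 (-0.68 ± 0.21) and Prrx1 (-1.27 ± 0.46) were lower and Atf6 (0.59 ± 0.24) higher in SUI than in blank muscle, and Mrtfa alone was higher in stimulated than in SUI muscle. Over all genes 8.18% reached that p in either direction in SUI over blank, and 8% in stimulated over SUI.

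The genes with the profile most like a member's were taken from 11258 genes with a mean of at least 1 CPM, by the mean absolute difference of centred log2 CPM over the 9 libraries. For Thbs1 they were Adamts20 (0.149 log2 units), Hs3st5 (0.16) and Abca8 (0.171). Adamts20, a secreted metalloprotease gene, held 16.02, 21.4 and 16.3 CPM in stimulated, 5.17, 5.93 and 6.18 in SUI and 15.7, 8.37 and 17.1 in blank libraries. For Tnc they were Ccn3 (0.308), Sfrp2 (0.312) and Clec11a (0.374), and for Postn Islr (0.2), Loxl2 (0.232) and Col1a2 (0.249). For Thbs4 the nearest were Frat2 (0.427), Dok7 (0.437) and Ecrg4 (0.442), each farther away than those of Thbs1.

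Connective tissue cell markers moved only in part with these genes. All 6 markers of fibro-adipogenic progenitors, the main fibroblast-like cells of muscle, were lower in SUI than in blank and higher in stimulated than in SUI muscle. At an unadjusted edgeR p under 0.05, 1 was lower in SUI than in blank, where 5.34% of all genes were. At that p, 3 were higher in stimulated than in SUI muscle, where 5.23% of all genes were. The summed level of the 6 markers was 62.4 to 340.5 CPM in stimulated, 59.0 to 119.2 in SUI and 142.3 to 160.4 in blank libraries, highest in stimulated replicate 2, and none of the 6 was at 0. In stimulated replicate 1 this sum was 62.4 CPM, within the SUI range. In that library Thbs2 (6.62 CPM), Thbs3 (2.84) and Postn (25.8) also lay within their SUI range, and Fn1 (70.8) below it. Thbs1, Thbs4, Tnc and Sparc lay above every SUI library there, as in every stimulated library. Tendon markers summed to 24.6 to 45.1 CPM in stimulated, 10.7 to 28.1 in SUI and 17.0 to 67.2 in blank libraries. In SUI over blank 4 of 5 were lower (median log2 fold change -2.55), 3 of them at that p, where 5.34% of all genes were. In stimulated over SUI 4 of 5 were higher (median 1.00), 1 of them at that p, where 5.23% of all genes were. Mean SUI and blank levels were 3.70 and 21.6 CPM for Fmod and 0.179 and 6.64 for Kera. They were 0.146 and 1.99 CPM for Tnmd, and 1.31 and 1.45 for Mkx. Of the 5, Scx was higher on average in SUI than in blank muscle. It held 4.87, 20.1 and 24.5 CPM in SUI and 8.42, 11.8 and 12.8 in blank libraries. Tnmd, a defining tendon gene, was at 0 in blank replicate 1, where Thbs4 was also lowest of its group. Tnmd was at 4.6 CPM in blank replicate 3, where Thbs4 was highest. Scx, Fmod and Kera had the same order in the blank libraries, but Mkx was lowest in blank replicate 2. Kera was at 0 in SUI replicate 3. Macrophage markers summed to 11.3 to 88.9 CPM in stimulated, 20.2 to 69.3 in SUI and 45.1 to 55.5 in blank libraries. The 5 platelet markers summed to 2.41 to 6.36 CPM in stimulated, 3.02 to 4.11 in SUI and 3.76 to 5.92 in blank libraries. Over the 9 libraries Pf4 was at 0.648 to 4.03 CPM, Itga2b at 0.786 to 2.86 and Gp1ba at 0.283 to 0.927, while Ppbp and Gp9 were below 0.1 CPM in each. Cartilage and bone markers, where Comp is also made, summed to 0.226 to 0.61 CPM in stimulated, 0.144 to 4.16 in SUI and 2.62 to 20.04 in blank libraries, with Acan at 0 in all 3 stimulated libraries. All 4 were lower in SUI than in blank, 1 at an unadjusted edgeR p under 0.05, and lower in stimulated than in SUI muscle, 2 at that p. Over all genes 8.18% and 8% reached it in either direction. Endothelial markers summed to 184.0 to 259.9 CPM in stimulated, 148.9 to 162.3 in SUI and 124.1 to 263.9 in blank libraries, so that in this sum every stimulated library was above every SUI library. Of the 4 markers 3 were higher in stimulated than in SUI muscle, and Tek was lower, at means of 16.5 and 21.5 CPM. Smooth muscle markers summed to 56.5 to 102.0 CPM in stimulated, 58.1 to 101.9 in SUI and 52.8 to 154.2 in blank libraries. Schwann cell and adipocyte markers overlapped between all groups, as did Alas2, the measured erythroid marker. The part of these cells in the differences was not tested, and in a bulk sample fewer cells of a type and less RNA per cell cannot be told apart.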

How the data were processed

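Group and replicate number follow the sample titles. Per the submitters' processing notes the build was mRatBN7.2 and the tools were RSEM 1.3.1, Bowtie2 and DESeq2 1.4.5. The strand setting of the counting was not given in the sources used here. Expected counts were deposited by the authors as whole numbers, 1 column per library, used as deposited. The FPKM values deposited by the authors, fragments scaled by gene length and depth, served to compare levels between genes and as an alternative. The symbol of a repeated row went to the row with the most counts on average.

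After filterByExpr, 16256 genes were scaled by TMM and tested with the quasi-likelihood F test of edgeR 4.0.16 in R 4.3.3. The fit held all 9 libraries, and p-values were adjusted over all genes (Benjamini-Hochberg, threshold 0.05). Each SE is the absolute log2 fold change divided by the square root of F. A floor of 3 counts equals 0.0203 to 0.059 CPM and covers counting error only. The 8 genes, the related lists and the markers were chosen with earlier results of these data known. Named genes were all 8, up to 4 per related list and comparison by smallest p with any past the threshold, and the 3 nearest in profile to Thbs1, Tnc, Postn and Thbs4. Comp's and Itga8's library values and single markers were picked after their values were seen. Cd36, Tnxb, Hba-a1 and Hbb are not analysed here.

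Alternatives were other scalings (size factors of DESeq2, library totals), other filters (none, mean CPM of at least 1), other tests (DESeq2 1.42.0, limma 3.58.1 with voom and sample weights, limma on FPKM plus 1 or plus 0.1 on the log2 scale, which understates low genes), the 6 libraries compared, a replicate block, removal of length trends and each library left out. Leaving out blank replicate 1 and stimulated replicate 2 together was added after seeing the data. The edgeR step was tested on simulated data. Promoters are RefSeq's for GRCr8, matched by symbol, while all other coordinates are those of the deposited table.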

Additional observations from a re-analysis of the deposited data

How the results depend on the processing

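Of the 24 member results, 8 genes in 3 comparisons, 20 kept their direction in all 21 alternatives. With no library composition factors the median of all genes moved to 0.19, -0.11 and 0.09 in SUI over blank, stimulated over SUI and stimulated over blank, and the 8 genes kept 0, 8 and 6 positive values. DESeq2 called 176, 208 and 21 genes in the 3 comparisons against 0, 2 and 1 with edgeR, and 2, 3 and 0 of the 8 genes. Voom with sample weights called 48 genes in stimulated over SUI, 1 of them of the 8. In stimulated over SUI, 1 gene was called with library totals or the replicate block, and 0 with the 6 libraries compared, with limma on FPKM at either pseudocount or without blank replicate 1 and stimulated replicate 2 together. In stimulated over blank, 0 were called with the 6 libraries, the replicate block, limma on FPKM at a pseudocount of 1 or without those libraries together. Leaving out 1 library gave 0 to 1 called genes in SUI over blank, 0 to 3 in stimulated over SUI and 0 to 1 in stimulated over blank, and 0, 0 to 1 and 0 of the 8 genes. The median of the 8 genes was -1.43 to -0.82, 0.93 to 1.61 and -0.22 to 0.44 over these. It was 0.73 in stimulated over SUI with limma on FPKM at a pseudocount of 1, since the pseudocount shrinks low genes, and -0.40 in stimulated over blank without both libraries.

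Reversals occurred in stimulated over blank, where no gene was called. Fn1, at 0.02, went to -0.0019 with DESeq2 size factors and with DESeq2, -0.0035 with length trends removed, -0.30 with voom, -0.16 with the replicate block, and -0.071 (pseudocount 1) and -0.087 (pseudocount 0.1) with limma on FPKM. Without blank replicate 1 it was -0.15, without blank replicate 2 -0.09, and without stimulated replicate 2 -0.64. Thbs4, at 0.05, was -0.41 without blank replicate 1, -0.0043 without blank replicate 2 and -0.33 without stimulated replicate 3. Thbs3 was -0.044 with voom and -0.25 without stimulated replicate 2, and Postn -0.19 without that library. Without both libraries Thbs3, Thbs4, Postn and Fn1 were at -0.39, -0.34, -0.41 and -0.82. The highest values on leaving out 1 library were 0.60 for Thbs3, 0.77 for Thbs4, 0.94 for Postn and 0.39 for Fn1. The cause was not tested. Same-numbered libraries of different groups had correlations of their deviations from -0.218 to 0.113, so the numbers were not taken as pairs, and the replicate block changed no call of the 8 genes. The lowest level of the 8, 1.04 CPM for Thbs3 in SUI replicate 1, rested on 117 counts.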
